A study of Caenorhabditis elegans with 15 samples.

Results

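The core histone genes of Caenorhabditis elegans encode the H2A, H2B, H3 and H4 proteins around which nuclear DNA is wound. They were taken by name, as every gene called his- and a number except the linker histone gene his-24. The rule gave 71 of the 46904 gene identifiers counted. By protein class 17 encode H2A, 16 encode H2B, 15 encode H3, 16 encode H4, 5 encode H3.3-type variants of H3 (his-69, his-70, his-71, his-72 and his-74), and 2 are short genes of no assigned class (his-39 and his-73). The study sequenced mRNA of whole adult worms, grown on solid media, in 15 libraries of 5 genotypes, 3 per genotype. The N2 wild type strain served as WT. The fbf-2 and fbf-1 strains carry mutations in genes for closely related PUF-family RNA-binding proteins, which bind and repress germline mRNAs and keep the germline stem cells. The 3xlnc strain is mutant in the long intervening non-coding RNA genes linc-4, linc-29 and linc-7, and the fbf-1 3xlnc strain carries those mutations together with that in fbf-1. WT, fbf-2 and 3xlnc libraries are labelled total RNA and the fbf-1 and fbf-1 3xlnc libraries polyA RNA, while the same mRNA library kit is named for all. Between these sets the genotype and the labelled RNA type cannot be told apart. The labels do not give the alleles, or whether the 3 libraries of a genotype came from separate cultures, so each p-value measures the spread between libraries, which may be technical.

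Histone genes of animals fall into a pair of kinds. Replication-dependent genes are clustered, lack introns and are transcribed when DNA is copied. Their mRNAs commonly end in a stem-loop that is bound by a stem-loop binding protein, CDL-1 in the worm, in place of a poly(A) tail. Replacement variants such as H3.3 are made throughout the cell cycle from genes with introns, whose mRNAs carry poly(A) tails, and are deposited into chromatin outside DNA replication. In an adult hermaphrodite the cells that still copy DNA are mostly in the germline, and oocytes load histone proteins and mRNAs for the embryo. Adult RNA of the whole animal mixes germline, sperm, oocytes, embryos in the uterus and somatic tissue, so fewer cells of a type and less RNA per cell cannot be told apart in these data.

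Total counts per library ran from 9068700 to 38453738, and WT replicate 1 was the shallowest. Ribosomal RNA genes took 4.62% of the counts of WT replicate 1, and 0.516% and 0.976% in the other WT libraries. In the remaining groups the share was lowest at 0.164% (fbf-2) and highest at 4.13% (fbf-1 3xlnc). The 3 linc genes had 0 counts in all 6 libraries that carry their mutations. The fbf-2 gene was at 6.10 to 7.30 CPM (counts per 1000000 of the library's total) in fbf-2 against 26.0 to 32.1 in WT, and fbf-1 was at 7.80 to 8.57 CPM in the strains mutant in it against 35.4 to 39.8 in WT. Markers of the germline, sperm, oocytes, early embryos, intestine, muscle and hypodermis were detected in every genotype, and of 39 sperm markers 1 was at 0 throughout.

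Core histone genes together took 165399 counts, which is 0.0466% of all counts in the series. Of the 71 genes, 26 had no count in any of the 15 libraries. For a gene whose reads match no other locus, 0 counts allow up to 0.00844 CPM over the series (3 counts of the total, counting error only). This is no ceiling for copies that share reads. A further 17 had between 1 and 99 counts in all 15 libraries together. The genes at 0 were spread over the classes, with 8 of 17 H2A genes, 7 of 16 H2B genes, 4 of 15 H3 genes, 6 of 16 H4 genes and none of the 5 H3.3-type genes.

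Several worm histone loci encode the same protein. Nearly all genes at 0 shared their symbol in the annotation with another member, and the identity of the encoded proteins was not checked. In WBcel235, 36 of the 71 genes carry a symbol that at least 1 other member also carries. Of those 36, 25 were at 0 and the other 11 had at most 236 counts each. Of the 35 genes with a symbol of their own, 34 had counts and the exception was the short gene his-39. No source used here gives how the authors' counting treated reads that match several loci. Hence a count of 0 on a copy does not show that the copy was silent, and counts on its relatives may lack shared reads.

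**Figure D1:**
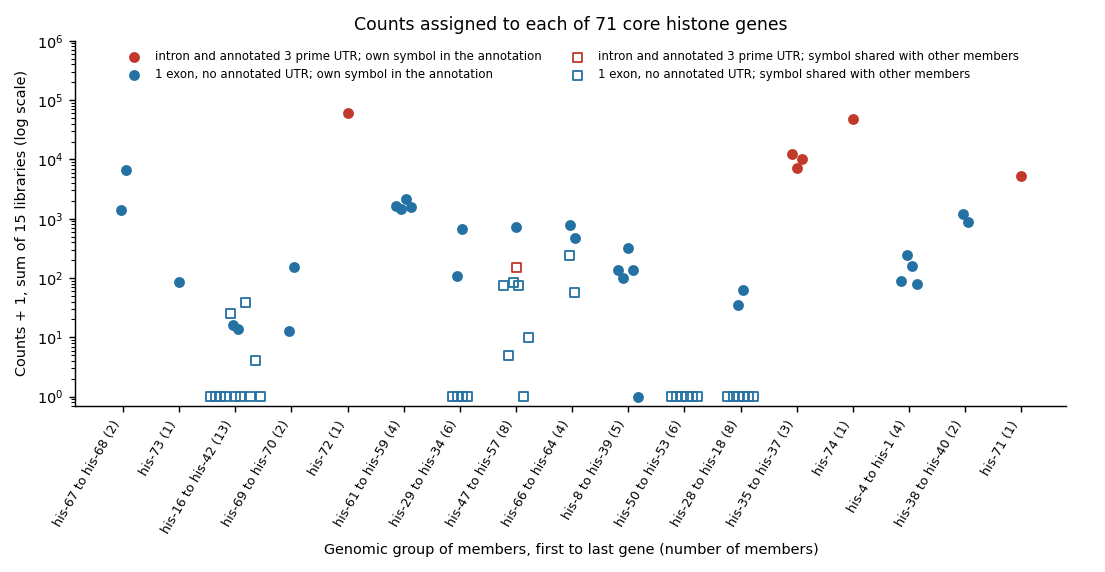
Counts + 1, summed over 15 libraries on a log axis, of each of the 71 core histone genes, arranged by genomic group along the x axis with the number of members in brackets. Filled points are genes with a symbol of their own in the annotation, open squares genes that share a symbol with another member, red genes with an intron and an annotated 3′ UTR and blue genes with 1 exon; the 26 genes at 0 lie on the bottom line, and 25 of them are open squares.

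The 71 genes lie in 17 genomic groups when members within 20 kb of each other are joined. Of these groups 13 hold at least 2 members and 4 are lone genes, among them the H3.3 genes his-72, his-74 and his-71. Members pair head to head, with divergent start sites, in 31 cases. An H2A gene faces an H2B gene in 16 of the pairs and an H3 gene faces an H4 gene in 14, and the gap between the annotated starts ran from 227 to 368 bp with a median of 258 bp. The remaining pair joins the H4 gene his-67 and the H2A gene his-68. The group with the most members, 13 genes on chromosome II (13817760 to 13828697), held 92 counts in all. A group of 6 genes on chromosome V (8847393 to 8854053) held none. By contrast the 4 genes his-61, his-62, his-60 and his-59 on chromosome IV (7485834 to 7488659), 1 of each core histone, held 6805.

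Most counts fell on the few genes with introns. In the annotation 7 members have an intron and an annotated 3′ UTR, namely his-35, his-37, his-41, his-57, his-71, his-72 and his-74, and they held 86.7% of the core histone counts. The other 64, with 1 exon and no annotated UTR, held 13.3%. The H3.3 genes his-72 and his-74 alone held 65.3%. Another 18.1% fell on his-35 (H2A), his-41 (H2B) and his-37 (H4), which sit side by side on chromosome V (9544659 to 9547607). By class the H3.3-type genes held 68.6% of the counts, H2A genes 13.0%, H4 genes 9.60%, H2B genes 5.99% and the canonical H3 genes 2.81%. An mRNA kit is recorded for all samples, so these are shares of the RNA that kit captured, and its capture of histone mRNAs without a poly(A) tail was not tested. The authors' deposited table marks his-70, his-72 and his-74 as germline-enriched and no other core histone gene.

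Per kilobase of exon, averaged over the 15 libraries, his-72 stood at 274 CPM per kb and his-74 at 235. In WT alone his-72 was at 311 ± 59.1 CPM per kb and his-74 at 262 ± 47.6 (SD, n = 3). Within each WT library his-72 was the higher, at 379, 278 and 276 CPM per kb against 312, 256 and 217. The next genes were his-35 at 72.7, his-37 at 69.4, the 1-exon H2A gene his-68 at 50.3, his-41 at 40.5 and the H3.3 gene his-71 at 25.7 CPM per kb. In WT his-35 was at 66.7 ± 15.3 and his-37 at 55.0 ± 21.4 CPM per kb, with his-35 the higher in each of the 3 libraries. Of the 1-exon genes after his-68, his-60 (H4) reached 19.4, his-67 (H4) 12.7, his-61 (H2A) 12.2, his-62 (H2B) 11.4 and his-59 (H3) 11.3 CPM per kb. The other H3.3-type genes were far lower, with his-70 at 1.08 and his-69 at 0.0893 CPM per kb. The his-69 gene had counts in 7 of 15 libraries and none in WT.

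The summed level of all 71 genes was 621, 448 and 429.9 CPM in the WT libraries, 742, 612 and 542 in fbf-2, and 425, 410.5 and 428 in 3xlnc. WT replicate 1 was the highest WT library for this sum and for the H2A, H2B, H3, H4 and H3.3-type sums, and fbf-2 replicate 1 was the highest fbf-2 library. The fbf-2 and WT ranges overlapped for the sum, while the highest 3xlnc library (428.45) lay just below the lowest WT library (429.91). With ribosomal RNA genes left out of the totals, 3xlnc and WT overlapped, since 3xlnc replicate 1 was at 436 CPM and WT replicate 3 at 434. The polyA set gave 436, 438 and 454 CPM in fbf-1 and 381, 395 and 398 in fbf-1 3xlnc, which did not overlap. The ratio of group means was 1.27 for fbf-2 over WT, 0.844 for 3xlnc over WT and 0.884 for fbf-1 3xlnc over fbf-1. These are descriptions, with no test, of a sum in which his-72 and his-74 are the larger part.

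**Figure D2:**
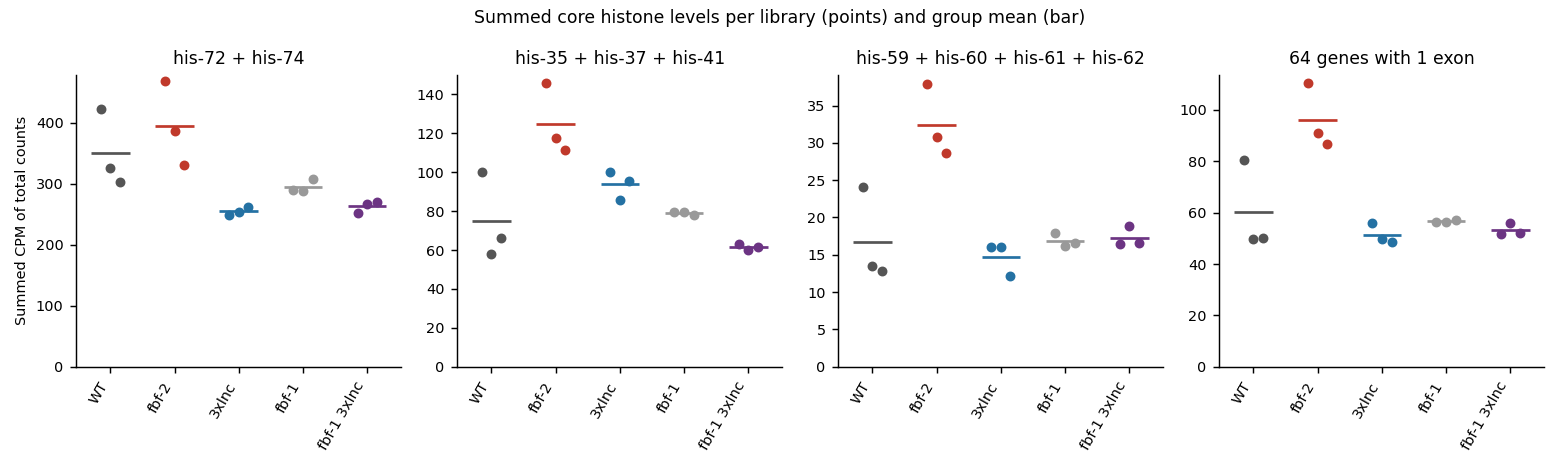
Summed CPM per library (points, 3 per genotype, y axis from 0) and group mean (bar) for 4 sets of core histone genes. The 3 fbf-2 libraries lie above all WT libraries for his-35 + his-37 + his-41, for his-59 to his-62 and for the 64 genes with 1 exon, and overlap WT for his-72 + his-74.

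In fbf-2 worms 5 of the 24 core histone genes with enough counts to test rose. They were 2 of 4 tested H2A genes, 1 of 5 H2B genes and 2 of 6 H4 genes, and no H3 or H3.3-type gene passed. The genes his-61 (2.11-fold), his-60 (1.90-fold), his-62 (1.86-fold), his-37 (1.86-fold) and his-68 (1.52-fold) were the 5. None fell; 1 (his-38) was lower at an unadjusted p under 0.05, and DESeq2 called 0 lower. Over all 13401 genes tested, 5.51% were higher and 10.1% lower at an adjusted p under 0.05 (edgeR quasi-likelihood test, Benjamini-Hochberg adjustment over all genes tested). That tilt to the lower side depended on the setting, with 2073 higher and 2340 lower under the replicate block and 2523 and 2480 without WT replicate 1. The median log2 fold change of the tested members was 0.55 and that of all genes -0.04, and 22 of 24 members were above 0. Low members such as his-2, his-3, his-8 and his-66 passed the count filter only with their fbf-2 counts, so they cannot support a rise. With a mean of 50 counts or more as the filter, 12 of 15 members were above 0.

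The genes his-59 to his-62 are a compact unit of 1 H3, 1 H4, 1 H2A and 1 H2B gene in a pair of head-to-head pairs. The H4 gene his-60 was at 5.95, 4.99 and 4.12 CPM in WT and at 12.03, 9.37 and 9.51 in fbf-2. Every fbf-2 library exceeded every WT library, and the log2 fold change was 0.93 ± 0.17 (SE, adjusted p = 0.00979, edgeR). The H2A gene his-61, at 5.18, 2.52 and 3.11 CPM in WT and 9.27, 8.12 and 6.45 in fbf-2, had the highest log2 fold change among the members tested, 1.08 ± 0.23 (adjusted p = 0.0185, edgeR). Its partner his-62, an H2B gene, was at 5.40, 2.81 and 2.41 CPM in WT and 7.60, 6.26 and 6.49 in fbf-2, with a log2 fold change of 0.90 ± 0.25 (adjusted p = 0.0451, edgeR). For both genes the groups did not overlap, and WT replicate 1 was nearest to fbf-2. The H3 gene his-59 was at 7.50, 3.15 and 3.16 CPM in WT and 8.98, 7.08 and 6.21 in fbf-2, so that WT replicate 1 lay inside the fbf-2 range, and its log2 fold change of 0.66 ± 0.29 did not pass (adjusted p = 0.158, edgeR). The 4 genes together were at 24.04, 13.5 and 12.8 CPM in WT and 37.9, 30.8 and 28.7 in fbf-2, a ratio of means of 1.94.

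The chromosome V trio with introns gave 1 call. The H4 gene his-37 was at 33.3, 15.1 and 22.4 CPM in WT and 52.8, 44.2 and 43.2 in fbf-2, with no overlap and a log2 fold change of 0.89 ± 0.22 (adjusted p = 0.0267, edgeR). The H2A gene his-35 was at 42.0, 28.5 and 29.1 CPM in WT and 58.3, 49.0 and 42.6 in fbf-2. Its groups did not overlap, and its log2 fold change of 0.48 ± 0.15 lay just outside the threshold (adjusted p = 0.0595, edgeR). The H2B gene his-41, at 24.8, 14.6 and 14.6 CPM in WT and 34.8, 24.5 and 25.9 in fbf-2, overlapped through WT replicate 1 and gave 0.56 ± 0.20 on the log2 scale (adjusted p = 0.0886, edgeR).

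Among the other 1-exon genes, the H2A gene his-68 was at 24.8, 15.2 and 16.3 CPM in WT and 35.1, 29.5 and 27.1 in fbf-2. The groups did not overlap and the log2 fold change was 0.60 ± 0.16 (adjusted p = 0.0413, edgeR). Its head-to-head partner, the H4 gene his-67, was at 5.07, 3.19 and 3.36 CPM in WT and 6.14, 4.90 and 4.41 in fbf-2, which overlapped, at 0.32 ± 0.20 (adjusted p = 0.288, edgeR). The H4 gene his-38 on the X chromosome was lower in fbf-2 by value, with 6.06, 2.95 and 3.92 CPM in WT and 2.96, 3.54 and 2.74 in fbf-2. Its groups overlapped and its log2 fold change of -0.56 ± 0.24 did not pass (adjusted p = 0.142, edgeR). With its H3 partner his-40 (-0.17 ± 0.30) it made up the 2 of 24 members below 0. Counting members whose libraries did not overlap, 10 were higher in fbf-2 (his-8, his-35, his-37, his-48, his-60, his-61, his-62, his-63, his-66 and his-68) and 0 lower, where 24.7% of all genes tested did not overlap on the higher side and 15% on the lower. Of these members, his-8 and his-66 passed the count filter only with their fbf-2 counts and lend no support to a rise.

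**Figure D3:**
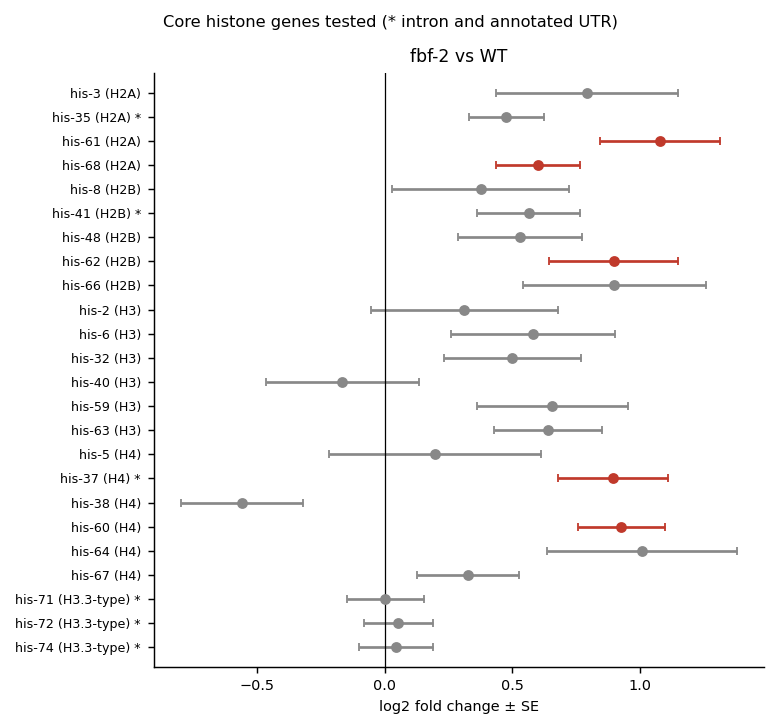
Log2 fold change in fbf-2 over WT (points) and its SE (bars) for the 24 core histone genes tested, ordered by class, with an asterisk on genes that have an intron and an annotated UTR. Red points passed an adjusted p of 0.05; they are his-37, his-60, his-61, his-62 and his-68, and the 3 H3.3-type genes at the bottom lie at 0.00 to 0.05.

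None of the H3.3 genes tested passed in fbf-2. The his-72 gene was at 242, 177 and 176 CPM in WT and 263, 219.8 and 189 in fbf-2, with overlapping groups and a log2 fold change of 0.05 ± 0.14 (adjusted p = 0.814, edgeR). The his-74 gene was at 181, 149 and 126 CPM in WT and 204, 166 and 141 in fbf-2, at 0.04 ± 0.14 (adjusted p = 0.864, edgeR). The his-71 gene was at 16.9, 14.1 and 11.4 CPM in WT and 16.8, 16.3 and 13.0 in fbf-2, at 0.00 ± 0.15 (adjusted p = 0.998, edgeR). For all 3 the groups overlapped, and under upper-quartile scaling the 3 values fell just below 0. The authors' deposited table marks 3 core histone genes as bound by FBF-2, namely his-60, his-72 and his-74; of these, his-60 rose and the H3.3 genes did not pass the test. A difference between the H3.3-type genes and the other classes was not itself tested.

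WT and fbf-2 libraries of the same number deviated together, and with the replicate number as a block 10 core histone genes passed instead of 5 (his-59, his-35, his-41, his-63 and his-64 in addition), while over all genes 4413 passed instead of 2095. The calls depended on single libraries: 12 members were higher without WT replicate 1, 2 without WT replicate 2 and 0 without WT replicate 3, and 1, 1 and 2 without fbf-2 replicates 1, 2 and 3. Other values, as CPM, moved with the genotype too. Summed CPM of 18 S-phase genes was 4672 to 4758 in fbf-2 against 4166 to 4527 in WT. In the fit none of the 18 passed, 8 were above 0 and their median log2 fold change was -0.02. The oocyte and embryo markers were higher, at 4660 to 4836 CPM against 4000 to 4337. The sperm markers were lower, at 123 to 196 against 247 to 368. So were the early embryo markers, at 3.80 to 5.55 against 5.61 to 6.18. The other marker sets overlapped. The part of these values in the result was not tested. TMM scaling and CPM differ here by more than 0.1, since the median log2 ratio of group mean CPM over all genes tested was 0.09 against -0.04 in the fit, and the same 24 members had a median of 0.63 as CPM ratios.

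**Figure D4:**
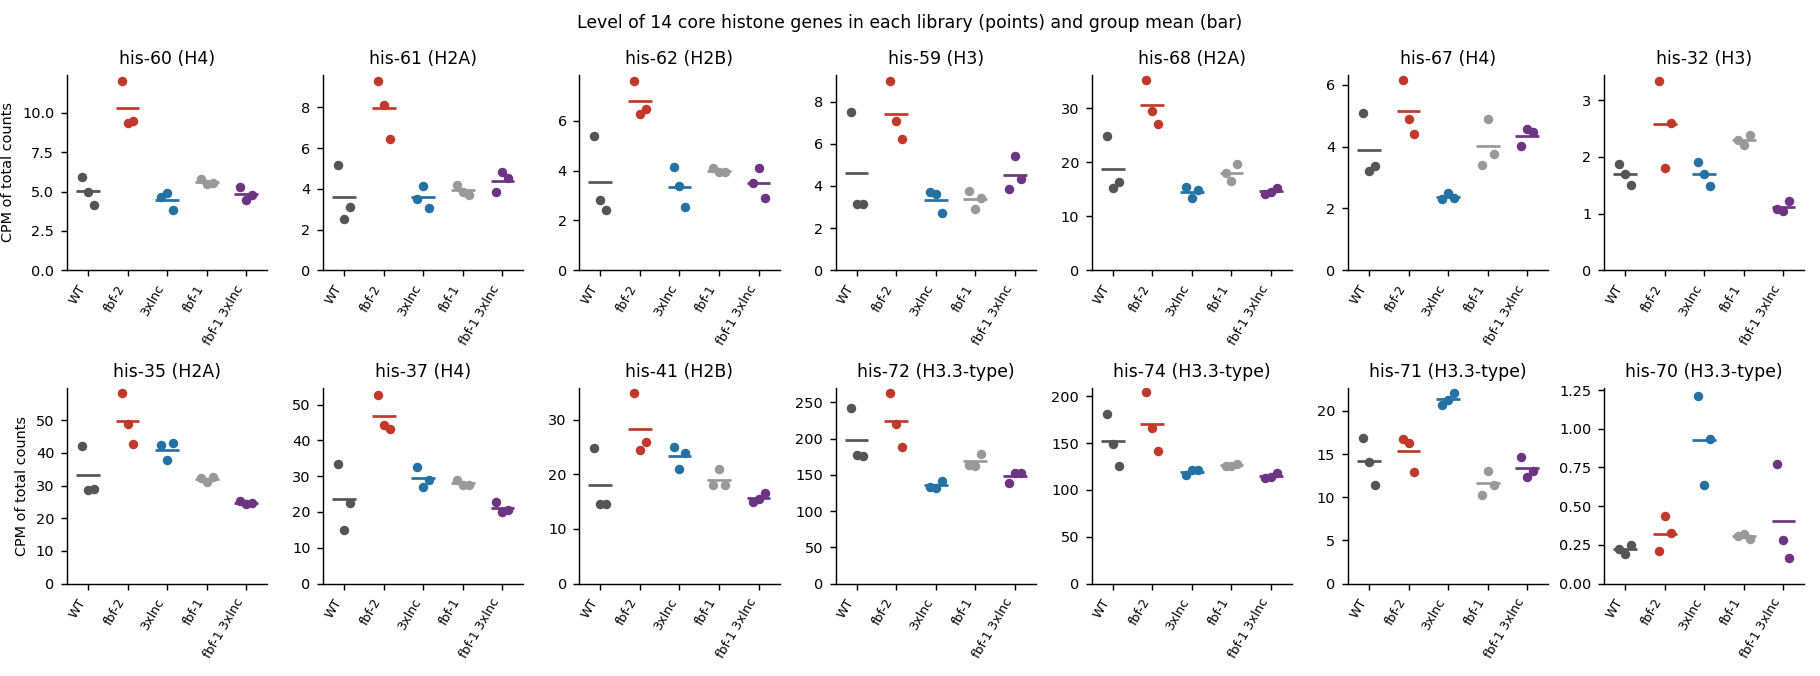
CPM of total counts per library (points, 3 per genotype) and group mean (bar) for 14 core histone genes, each with its own y axis from 0. The fbf-2 points of his-60, his-61, his-62, his-37, his-68 and his-35 lie above all WT points, those of 3xlnc lie below WT for his-72 and above it for his-71 and his-70, and those of fbf-1 3xlnc lie below fbf-1 for his-32, his-35 and his-37.

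In 3xlnc worms 3 of 20 tested core histone genes passed, a share near that of all genes tested (11.5%). The 3 were H3.3-type genes and went in opposite directions, and the classes were not tested against each other. Of 20 core histone genes tested, his-70 (3.88-fold) and his-71 (1.48-fold) rose and his-72 fell to 0.668 of its WT level. The his-70 gene passed the count filter through its 3xlnc counts alone, so its call lends no support to a rise of these genes. Among all 13861 genes tested 11.5% were called, 9.41% higher and 2.11% lower (edgeR, adjusted p under 0.05), which became 2439 higher and 2325 lower of 14165 without WT replicate 1. The median log2 fold change of the members was -0.14 and that of all genes -0.02. None of the tested genes of the H2A, H2B, H3 or H4 classes passed, by edgeR or DESeq2. At an unadjusted p under 0.05, his-63 and his-67 were lower.

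The his-72 gene was at 242, 177 and 176 CPM in WT and 133, 132 and 141 in 3xlnc. The groups did not overlap, the 3xlnc libraries were tight, and the log2 fold change was -0.58 ± 0.11 (adjusted p = 0.0138, edgeR). The his-74 gene, which with his-72 supplies most H3.3 mRNA here, was at 181, 149 and 126 CPM in WT and 116, 121 and 121 in 3xlnc. It did not overlap either, at a log2 fold change of -0.38 ± 0.12 that did not pass (adjusted p = 0.0668, edgeR). The his-71 gene moved the other way, with 16.9, 14.1 and 11.4 CPM in WT and 20.7, 21.2 and 22.1 in 3xlnc, no overlap and a log2 fold change of 0.57 ± 0.15 (adjusted p = 0.0355, edgeR). The his-70 gene, 1 exon long and 405 bp, had 2, 4 and 5 counts in the WT libraries and 21, 16 and 24 in the 3xlnc libraries. That is 0.221, 0.194 and 0.251 CPM against 1.21, 0.634 and 0.935, with a log2 fold change of 1.96 ± 0.44 (adjusted p = 0.0229, edgeR) that rests on few counts. Taken by summed level, the rise of his-71 and his-70 was small beside the drop of his-72: the H3.3-type sum was 440.0, 340.0 and 314 CPM in WT and 271, 275 and 285 in 3xlnc.

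The genes of the H2A, H2B, H3 and H4 classes gave values of mixed sign in 3xlnc, none of which passed. The intron-bearing trio was higher by value, at 0.29 ± 0.14 for his-35, 0.37 ± 0.19 for his-41 and 0.32 ± 0.22 for his-37 on the log2 scale, with overlapping groups and adjusted p from 0.198 to 0.345 (edgeR). Their sum was 100.1, 58.1 and 66.0 CPM in WT and 99.99, 85.7 and 95.7 in 3xlnc, so WT replicate 1 lay level with the highest 3xlnc library and the other WT libraries were below all 3. The his-59 to his-62 unit was at 24.04, 13.5 and 12.8 CPM in WT and 16.05, 16.05 and 12.2 in 3xlnc, with overlap. On chromosome I, the H4 gene his-67 was at 5.07, 3.19 and 3.36 CPM in WT and 2.31, 2.50 and 2.34 in 3xlnc, with no overlap and a log2 fold change of -0.70 ± 0.21 that did not pass (adjusted p = 0.0604, edgeR). Its partner his-68 gave -0.38 ± 0.17 (adjusted p = 0.172, edgeR). Counting members whose libraries did not overlap, his-70 and his-71 were higher and his-63, his-67, his-72 and his-74 lower, against 23.1% and 10.6% of all genes tested. Of these members, his-70 passed the count filter only with its 3xlnc counts and lends no support to a rise.

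The number of calls in 3xlnc changed with each library left out. Without WT replicate 1, 5 members were higher (his-35, his-37 and his-41 in addition) and 3 lower (his-63, his-72 and his-74); without WT replicate 2 his-71 and his-72 passed, and without WT replicate 3 his-72 and his-74, both lower. Without 3xlnc replicate 1 or 3 no member passed, and without 3xlnc replicate 2 his-70 alone did. Other tissue markers moved as well. The sperm markers summed to 472 to 658 CPM in 3xlnc against 247 to 368 in WT. The muscle markers summed to 6085 to 6742 against 2882 to 4719, and the hypodermis markers to 2303 to 2432 against 1650 to 2056. The oocyte and embryo markers were lower, at 3487 to 3671 against 4000 to 4337. So were the early embryo markers, at 3.12 to 5.03 against 5.61 to 6.18. The germline and intestine markers overlapped. Their part in the result was not tested.

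**Figure D5:**
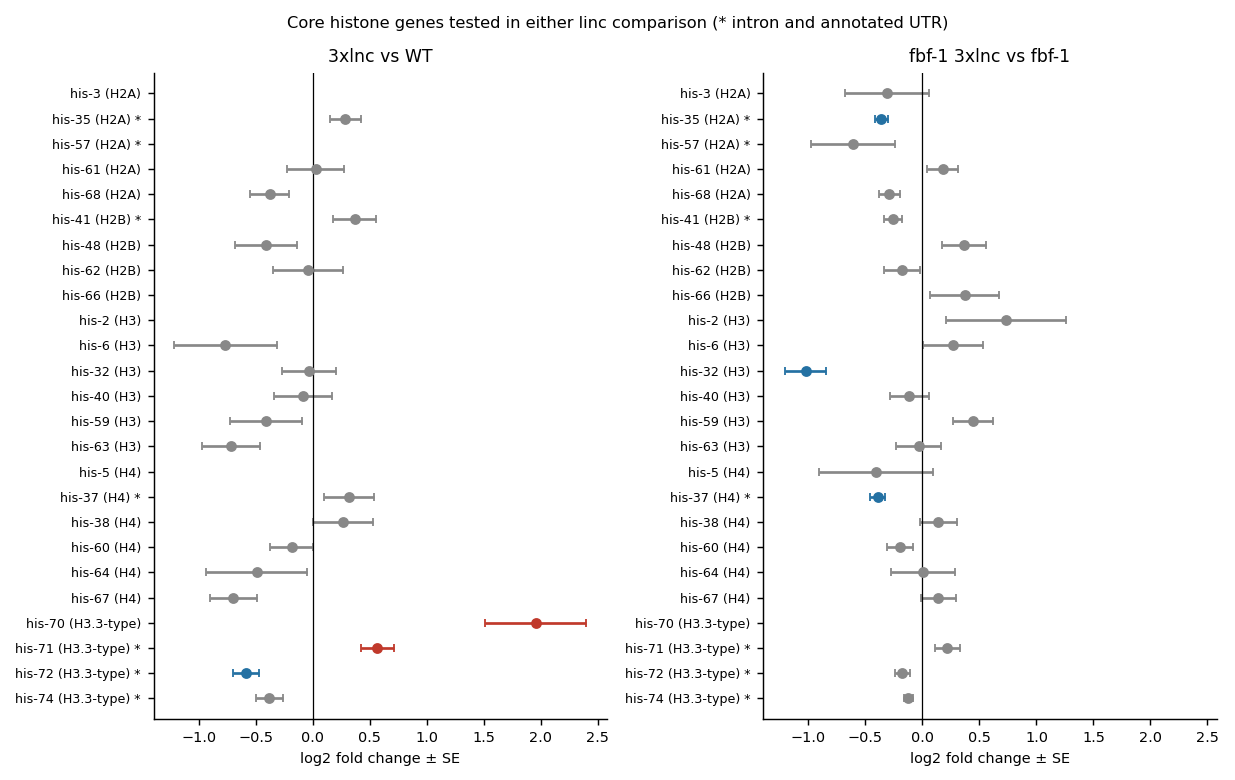
Log2 fold change (points) and SE (bars) of core histone genes in 3xlnc over WT (left, 20 tested) and in fbf-1 3xlnc over fbf-1 (right, 24 tested), ordered by class on a shared x axis, with an asterisk on genes that have an intron and an annotated UTR; a gene with no point was not tested. Red points passed upward (his-70 and his-71, left) and blue points downward (his-72 left; his-32, his-35 and his-37 right).

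In the fbf-1 background the linc mutations went with lower levels of an H3, an H2A and an H4 gene. Of 24 core histone genes tested, 3 fell and 0 rose: his-32 to 0.492, his-37 to 0.761 and his-35 to 0.779 of the fbf-1 level. Among all 14104 genes tested 8.49% were lower and 9.43% higher (edgeR, adjusted p under 0.05). The 3 lower of 24 stand near that share of all genes, so the count says little about core histones as a set. Of the members, 1 (his-59) was higher at an unadjusted p under 0.05, and none was higher by DESeq2. The median log2 fold change of the members was -0.12 and that of all genes 0.00.

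The 1-exon H3 gene his-32 on chromosome IV (8334305 to 8334715) was at 2.30, 2.21 and 2.39 CPM in fbf-1 and 1.08, 1.05 and 1.23 in fbf-1 3xlnc. The groups were tight and apart, at a log2 fold change of -1.02 ± 0.18 (adjusted p = 0.00591, edgeR). The H2A gene his-35 was at 32.4, 31.0 and 32.7 CPM in fbf-1 and 25.4, 24.3 and 24.6 in fbf-1 3xlnc, with a log2 fold change of -0.36 ± 0.05 (adjusted p = 0.00284, edgeR). The H4 gene his-37 beside it was at 28.96, 27.5 and 27.4 CPM in fbf-1 and 22.8, 20.02 and 20.5 in fbf-1 3xlnc, at -0.39 ± 0.06 (adjusted p = 0.00377, edgeR). Neither gene's groups overlapped, and all 3 calls held when any of the 6 libraries was left out.

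The H2B gene of the trio, his-41, was at 18.1, 20.9 and 17.97 CPM in fbf-1 and 14.97, 15.5 and 16.6 in fbf-1 3xlnc, which did not overlap, at a log2 fold change of -0.26 ± 0.08 just outside the threshold (adjusted p = 0.0523, edgeR). The H2A gene his-68, at 18.1, 16.4 and 19.6 CPM against 14.1, 14.5 and 15.3, gave -0.29 ± 0.09 (adjusted p = 0.0571, edgeR). Among H3.3 genes, his-72 was at 164, 163 and 179 CPM in fbf-1 and 139, 153 and 153 in fbf-1 3xlnc (-0.18 ± 0.07, adjusted p = 0.0931, edgeR). The his-74 gene was at 126, 125 and 128 CPM against 112, 114 and 118 (-0.12 ± 0.04, adjusted p = 0.0708, edgeR). Both H3.3 genes were lower without overlap but did not pass, and his-71 (0.22 ± 0.11) overlapped.

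In the his-59 to his-62 unit no gene passed, and its sum was 17.9, 16.2 and 16.6 CPM in fbf-1 and 16.5, 18.9 and 16.5 in fbf-1 3xlnc. Counting members whose libraries did not overlap, 9 were lower (his-32, his-35, his-37, his-41, his-57, his-60, his-68, his-72 and his-74) and his-59 was higher, against 21.2% and 17.7% of all genes tested. Of these members, his-57 passed the count filter only with its fbf-1 counts and lends no support to a fall. Ribosomal RNA took 2.02% to 4.13% of the counts in fbf-1 3xlnc and 0.218% to 1.00% in fbf-1, and with ribosomal RNA genes left out of the total, the ratio of summed core histone levels was 0.904 in place of 0.884. The sperm markers summed to 646, 275 and 285 CPM in fbf-1 3xlnc against 124 to 208 in fbf-1. The muscle markers summed to 5211, 4082 and 4083 CPM against 3678 to 3798. The germline markers were lower, at 2811 to 2879 CPM against 3010 to 3061, and so were the intestine markers, at 63024.5 to 64068 against 69524 to 74827. The other marker sets overlapped. The part of these markers in the result was not tested.

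Whether the linc mutations acted differently on a gene in the 2 backgrounds was tested as the interaction over 12 libraries. Only his-35 passed among 27 members tested, where 6.2% of 14772 genes were called, 3.66% with a lower and 2.54% with a higher value in the fbf-1 background. It was higher by value in 3xlnc (log2 0.29 over WT) and fell in fbf-1 3xlnc (-0.36 over fbf-1), a difference of -0.64 ± 0.15 (adjusted p = 0.0198, edgeR). The other genes of the trio gave differences of -0.71 ± 0.24 for his-37 and -0.62 ± 0.21 for his-41 that did not pass (adjusted p = 0.0955 and 0.101, edgeR). No member was called higher; at an unadjusted p under 0.05, 5 were, among them his-67 (0.84 ± 0.25, adjusted p = 0.0615, edgeR) and his-72 (0.41 ± 0.14, adjusted p = 0.0955, edgeR), and DESeq2 called none higher. The his-70 gene was called in 3xlnc, where it passed the count filter through its 3xlnc counts alone. It was at 0.306, 0.322 and 0.286 CPM in fbf-1 and 0.769, 0.281 and 0.166 in fbf-1 3xlnc. Its difference of -1.54 ± 0.75 did not pass (adjusted p = 0.265, edgeR). The call on his-35 was lost in 6 of the 12 fits that left out 1 library (WT replicate 3, 3xlnc replicate 1, fbf-1 replicates 1 and 3, and fbf-1 3xlnc libraries 2 and 3), with values from -0.79 to -0.56. The backgrounds also differ in the RNA type on the labels and in the sequencing sets, which cannot be told apart from the fbf-1 mutation.

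Across the sets, with that limit, the levels can only be set side by side. Summed levels of the 64 genes with 1 exon were 60.1 ± 17.6 CPM in WT and 56.6 ± 0.400 in fbf-1 (SD, n = 3), and those of the 7 genes with introns and annotated UTRs 439 ± 87.9 and 386 ± 9.90. For fbf-2 these sums were 96.2 ± 12.8 and 536 ± 88.8 CPM, for 3xlnc 51.5 ± 3.93 and 370.0 ± 9.64 CPM, and for fbf-1 3xlnc 53.3 ± 2.26 and 338 ± 8.04 CPM. The spread within the WT and fbf-2 groups was several times that in the other groups.

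Genes taken to supply, load or process histones were described from a list of 46. Of these, 43 were in the tables under the listed symbols, and all 43 were tested. In fbf-2, 2 of them were higher and 2 lower, where 5.51% and 10.1% of all genes tested were, and their median log2 fold change was 0.01. The histone chaperone gene nasp-1 rose from 155 ± 13.2 to 224 ± 12.8 CPM (log2 0.40 ± 0.09, adjusted p = 0.0192, edgeR), and eri-1, for an exonuclease whose mammalian homologue trims the ends of histone mRNAs, from 55.1 ± 1.43 to 75.7 ± 3.87 (log2 0.33 ± 0.08, adjusted p = 0.034, edgeR). The Argonaute gene csr-1, whose product takes part in histone mRNA maturation in the worm, fell from 521 ± 59.9 to 347 ± 21.5 CPM (log2 -0.72 ± 0.15, adjusted p = 0.0138, edgeR). The other gene that fell was sptf-1, which the list held as a chaperone gene. That role of sptf-1 was not checked, so its values here and below may say nothing of histone supply. The stem-loop binding protein gene cdl-1 was at 268 ± 8.14 CPM in WT and 293 ± 10.1 in fbf-2, at a log2 fold change of 0.00 ± 0.10 (adjusted p = 0.98, edgeR).

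In 3xlnc the same list lay on the low side. All 43 genes had a negative log2 fold change, with a median of -0.24; as ratios of mean CPM 42 of 43 were below 1. Of all genes tested 51.6% had no positive log2 fold change and 2.11% were called lower. Past the threshold 4 fell: cdl-1, from 268 ± 8.14 to 212 ± 15.4 CPM (-0.38 ± 0.10, adjusted p = 0.0393, edgeR), the chaperone gene asfl-1 (-0.43 ± 0.10, adjusted p = 0.0311), and the replication origin genes orc-2 (-0.37 ± 0.08, adjusted p = 0.0238) and cdc-6 (-0.29 ± 0.08, adjusted p = 0.0476). Summed CPM of the 18 S-phase genes of the list was 3646 to 3743 in 3xlnc against 4166 to 4527 in WT, with no overlap.

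In fbf-1 3xlnc, pole-1, csr-1 and symk-1 were higher, nasp-1, chaf-1, polh-1 and the centromeric H3 variant gene cpar-1 were lower, and the median was -0.03. These 3 and 4 of 43 stand near the 9.43% and 8.49% of all genes tested that were called higher and lower. The log2 fold changes of these 7 ran from -0.24 to 0.22. The difference between backgrounds passed for 3 genes of the list, all higher in the fbf-1 background, namely cdl-1 (0.42 ± 0.12, adjusted p = 0.044, edgeR), orc-2 (0.48 ± 0.10, adjusted p = 0.0117, edgeR) and sptf-1 (0.90 ± 0.23, adjusted p = 0.0334, edgeR). The H2A.Z gene htz-1 and the centromeric H3 gene hcp-3 passed in no comparison, with log2 fold changes from -0.20 to 0.25 and from -0.18 to 0.18.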

How the data were processed

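Whole adult worms were extracted with TRIzol and a column kit and made into libraries with an mRNA kit, per the labels' protocols. The authors deposited raw counts per gene as whole numbers, per the file headers, and used STAR 2.7.9a, featureCounts (Subread 2.0.1), DESeq2 1.34.0 and WBcel235, per the submitters' processing notes. The table's flags for FBF-2 binding and germline enrichment are other deposited values. 18 columns of normalised values were not used. Columns of fbf-1 3xlnc match their group only, and their numbers merely name libraries.

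The raw counts of the 6 libraries of each comparison were filtered (filterByExpr), TMM-scaled and tested with the quasi-likelihood F test of edgeR 4.0.16 in R 4.3.3 (12 libraries for the difference between backgrounds), with Benjamini-Hochberg adjustment over all genes tested. CPM are counts per 1000000 of the library's total, and levels per kb use the exon length of the WBcel235 annotation, release 115 (46817 of 46904 identifiers found). The members and lists were chosen with earlier results of these data known. Named members are those past the threshold, the 3 with the highest level per length in each class, the H3.3-type genes and his-35; others are named after their values were seen. Same-numbered fbf-2 and WT libraries correlated across genes (0.357, 0.248 and 0.165) and meet the rule for pairing; 3xlnc and WT (0.000347, 0.0519 and -0.0594) do not. No pair of libraries in a group agreed within counting noise (lowest chi-square per degree of freedom, 5.83). Alternatives were RLE and upper-quartile scaling, no count filter, a mean of 50 counts, DESeq2 1.42.0, limma-voom (limma 3.58.1), the replicate block and leaving out each library. The procedure was tested on simulated counts.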

Additional observations from a re-analysis of the deposited data

Results flagged for a closer look

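The linc mutations gave different effects on the H2A gene his-35 in the 2 backgrounds by the test of the difference itself: log2 0.29 in 3xlnc over WT and -0.36 in fbf-1 3xlnc over fbf-1, a difference of -0.64 ± 0.15 (SE, adjusted p = 0.0198, edgeR). The background goes with the labelled RNA type, from which it cannot be told apart. This was the only call among 27 members tested, where 6.2% of all genes tested were called. The call was lost in 6 of the 12 fits that left out 1 library.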

How the results depend on the processing

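In fbf-2 over WT, 5 core histone genes were higher; upper-quartile scaling and a mean of 50 counts or more gave 3, no count filter and the replicate block 10, and leaving out 1 library 0 to 12. The block raised the calls over all genes to 4413, and leaving out 1 library gave 698 to 5003. The log2 fold changes of the H3.3 genes crossed 0 under upper-quartile scaling (his-71 -0.077, his-72 -0.025, his-74 -0.036), for his-71 also with a mean of 50 counts (-0.0070), and with 1 library left out (-0.10 to 0.10, -0.060 to 0.18 and -0.088 to 0.15). In 3xlnc over WT, a mean of 50 counts and the replicate block gave 1 higher gene in place of 2, no count filter 3 and DESeq2 2 lower in place of 1, and leaving out 1 library 0 to 5 higher and 0 to 3 lower. A mean of 50 counts gave 1044 calls over all genes, and leaving out 1 library 395 to 4764. Values near 0 crossed it for his-62 (0.044 with upper-quartile scaling, 0.011 with limma-voom, -0.27 to 0.24 with 1 library left out), his-32 (0.054 with upper-quartile scaling, -0.14 to 0.069) and his-61 (-0.12 to 0.26). The 3xlnc and WT numbers mark no pairs by the correlation rule, and the block ended the call on his-71 (adjusted p = 0.058, edgeR). In fbf-1 3xlnc over fbf-1, no count filter gave 5 lower genes in place of 3, and leaving out 1 library 0 to 1 higher and 1140 to 2720 calls over all genes. For the difference between backgrounds, RLE and upper-quartile scaling, DESeq2 and limma-voom gave 2 lower genes and no count filter 3, in place of 1. Leaving out 1 library gave 0 to 4 lower, 0 to 1 higher and 545 to 2763 calls over all genes. No paired analysis was possible for fbf-1 3xlnc because its columns match no single sample. The ratios of summed levels stayed within the spread between libraries under every setting run. The cause of these shifts was not tested. Of 625 values of single named genes under alternatives, 529 kept direction and side of the threshold, 41 lost a call, 35 gained one and 20 changed sign. Of the 71 members 44 had too few counts to be tested in any comparison, among them the 26 at 0.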
